A study of Mus musculus with 2 samples.

Results

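The BCL2 family, the caspases and the necroptosis genes are the machinery that carries out regulated cell death, and 32 genes of this machinery were described in mouse intestinal organoids (mIOs) with and without dextran sulfate sodium (DSS). The genes were taken as a list of symbols sorted by role, and the list was chosen with earlier results of these data known. All 32 were found among the 19294 genes of the count table. They fell into 10 classes: 3 effectors, 5 BH3-only proteins, 4 pro-survival proteins, 5 mitochondrial factors, 4 caspases, 3 adaptors and regulators of caspases, 2 inhibitors of apoptosis, 2 DNA fragmentation factors, a ligand and a receptor of the TNF system, and 2 necroptosis proteins. Expression was measured by poly(A) mRNA-seq in 2 libraries. The control library was made from untreated organoids and the DSS library from organoids treated for 4 days with DSS, a sulfated polysaccharide used to injure the intestinal epithelium. Both cultures came from jejunal crypts of mice with the genotype Lgr5-EGFP-IRES-creERT2, where the Lgr5 locus of stem cells drives EGFP and a tamoxifen-inducible Cre, and both were kept in Matrigel with EGF, Noggin and R-spondin. Such cultures hold epithelium without the stroma and the immune cells of the gut wall. The comparison asks which death genes differ between injured and intact organoids. The DSS concentration of the sequenced culture, the number of animals and the number of wells behind a library are not given in the sources used here.

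Cells of the gut epithelium are renewed continuously, and they die by shedding, by apoptosis or, under inflammation, by necroptosis. In the mitochondrial pathway, BH3-only proteins sense stress, occupy the groove of pro-survival proteins and set free the effectors, which open the outer mitochondrial membrane. Cytochrome c then leaves the mitochondria and joins APAF1 and caspase-9, whereas death receptors of the TNF family start caspase-8 through the adaptor FADD. Where caspase-8 is blocked, RIPK3 can activate MLKL, which breaks the plasma membrane.

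The BCL2 family is defined by its BCL2 homology (BH) domains, and the short BH3 motif is the surface through which death-promoting members bind pro-survival ones. The coding DNA of this motif is shown for the members on which the comparison turns. Each stretch is a run of 45 coding bases, written 5′ to 3′ on the coding strand, and the capitals mark the 18 bases from the codon of the conserved leucine to the codon of the conserved aspartate. The stretches were read from the GENCODE vM21 transcripts and placed on GRCm38. Among the effectors, that of Bax lies on the minus strand in exon 3 at chr7:45465991-45466035, and that of Bak1 on the minus strand in exon 4 at chr17:27022525-27022569. The stretch of Bok, on the plus strand, crosses the junction of exons 2 and 3 within chr1:93686645-93689176.
Bax: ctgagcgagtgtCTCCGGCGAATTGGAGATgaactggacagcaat
Bak1: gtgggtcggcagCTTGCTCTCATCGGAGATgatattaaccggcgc
Bok: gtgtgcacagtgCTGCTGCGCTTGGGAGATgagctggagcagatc

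Among the BH3-only genes, the stretch of Bad lies in exon 3 at chr19:6950780-6950824 and that of Bik in exon 3 at chr15:83543072-83543116, both on the plus strand. Among the pro-survival genes, Bcl2 (exon 1, minus strand, chr1:106712569-106712613), Bcl2l1 (exon 2, minus strand, chr2:152829691-152829735) and Mcl1 (exon 1, plus strand, chr3:95659424-95659468) carry the same motif.
Bad: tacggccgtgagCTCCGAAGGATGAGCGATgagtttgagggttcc
Bik: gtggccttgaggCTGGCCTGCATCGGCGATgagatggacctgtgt
Bcl2: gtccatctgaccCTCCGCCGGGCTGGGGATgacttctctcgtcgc
Bcl2l1: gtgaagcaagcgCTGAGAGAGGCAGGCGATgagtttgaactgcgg
Mcl1: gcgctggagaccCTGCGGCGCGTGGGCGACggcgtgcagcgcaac

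The motif was found in 11 of the 12 BCL2 family members, since the searched pattern had no match in Bcl2l2. Over the 55 pairs of these members, 16 to 28 of the 45 bases were identical, with a median of 21. The closest pair was Bak1 and Bik with 28 identical bases, an effector and a BH3-only gene. Bax and Bok shared 25 bases, and Bcl2 and Bcl2l1 shared 23. Only 5 bases were the same in all 11 stretches, 4 of them in the capitals.

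Depth was similar, with 65493032 counts for control and 59746968 for DSS. Counts were scaled with TMM factors (1.09 for control, 0.915 for DSS), a method that assumes that most genes do not differ. A level is given in scaled CPM, counts brought to a common library size, and a difference as the log2 ratio of DSS over control. The bracketed range after a ratio is its 95% interval (Clopper-Pearson, exact), and it accounts for counting error alone. Each condition has 1 library, so differences have no check against replicates and were not tested. All 6 epithelial markers were listed, and they summed to 5771 CPM in control and 9164 CPM in DSS. Epcam, Cdh1 and Krt18 had log2 ratios from -0.03 to 0.04, and Krt8 (0.84), Krt19 (1.15) and Vil1 (1.25) were higher in DSS. Levels of cell type markers differed widely between the libraries. The summed level of 6 stem cell markers was 1057 CPM in control and 210.2 CPM in DSS, and that of 7 cell cycle genes 1326 and 241.4 CPM. The summed level of 6 enterocyte markers was 1399 CPM in control and 18423 CPM in DSS, and that of 5 goblet cell markers 703.0 and 11136 CPM. The 3 enteroendocrine markers summed to 686.2 and 3451 CPM, the 4 Paneth cell markers to 494.3 and 241.0 CPM, and the 3 tuft cell markers to 6.92 and 2.54 CPM. On the log2 scale, all 6 stem cell markers were at -1 or below, and all 6 enterocyte and all 5 goblet cell markers at 1 or above. By RT-PCR, the paper reported lower Lgr5 and Lyz under DSS and similar levels of Vil1, Muc2 and Chga. Log2 ratios here were -3.78 for Lgr5 and -1.06 for Lyz1, but 1.25 for Vil1, 4.98 for Muc2 and 2.60 for Chga. RT-PCR levels and TMM-scaled counts of single libraries are different measures. From mRNA-seq, the paper also reported higher apoptosis, p53 pathway and TNF-α/NF-κB gene sets under DSS by gene set enrichment. Its live-dead assay gave lower viability at higher DSS concentrations. No gene set analysis was run here. Markers of other cells stayed low in sum, at 7.45 and 13.6 CPM for the 4 listed of 7 immune genes, 1.44 and 2.10 CPM for the 4 listed of 7 mesenchymal genes, and 0.17 and 1.01 CPM for Pecam1, the 1 listed of 3 endothelial genes. Ptprc, Cd3e, Col1a2, Col3a1 and Dcn were among the markers not in the table. The lowest count in the table is 1, so a gene without reads in 1 library is missing even if the other held some. Levels of the missing markers are therefore not known.

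Most of the 32 genes differed by less than 2-fold. All 32 passed the minimum of 10 counts in at least 1 library. A line was drawn at a log2 ratio of 1 or -1, a 2-fold difference. Of the 32 genes, 3 were past the upper line (Bok, Bad and Cycs), 3 past the lower line (Bik, Bcl2 and Htra2), and 26 lay between. The background over all 17235 tested genes was 19.3% past the upper line and 20.2% past the lower one. It leaves out genes without reads in a library, which are missing from the table. Together 39.5% of all genes were past a line, against 18.8% of the 32 genes. Of 47 other tested cell death genes, described further on, 38.3% were past a line. The difference in shares was not tested, and no member reached a log2 ratio of 2 or -2. Scaled by total counts alone, Bad (0.84) and Cycs (0.75) lay inside the upper line, which left Bok as the 1 gene past it. Among the 12613 tested genes with at least 100 control counts, 11.6% were past the upper and 21.5% past the lower line, against 3 and 2 of 31 members. By direction, 20 members (62.5%) were higher in DSS and 12 lower, and 48.0% of all tested genes were higher. Their median log2 ratio was 0.27, with quartiles at -0.34 and 0.60, against a median of -0.06 and quartiles of -0.79 and 0.73 over all tested genes. With total counts the split was 16 and 16 and the members' median 0.011. For 31 of the 32 genes, and for 81.4% of all tested genes, the counting interval lay on 1 side of 0, which reflects the depth of the libraries and says nothing on the spread between cultures. In bulk samples, fewer cells of a type and less RNA per cell cannot be told apart, and the part of the shifts in stem cell, cell cycle, enterocyte, goblet, enteroendocrine, Paneth and tuft cell markers in these ratios was not tested.

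**Figure D1:**
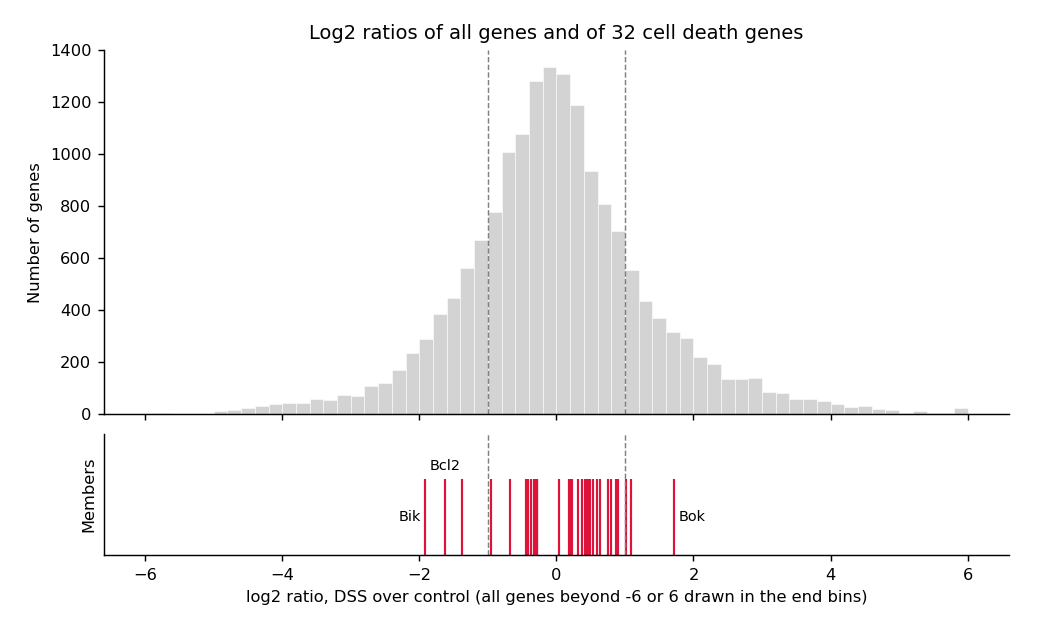
Number of genes (vertical axis) by log2 ratio of DSS over control (horizontal axis) for all 17235 tested genes, in grey, with the 32 cell death genes as red ticks below. The dashed lines stand at -1 and 1, and 26 of the 32 ticks lie between them. All 32 ticks run from Bik at -1.91 on the left to Bok at 1.72 on the right.

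The 3 effectors are the proteins that can form the pore in the outer mitochondrial membrane, and they differed in opposite directions. Bok (NCBI gene 51800), a BAX-like member that is controlled largely by its turnover, had 932 counts in control and 2349 in DSS, or 13.0 and 43.0 CPM. Its log2 ratio of 1.72 (interval 1.61 to 1.83), a 3.30-fold higher level, was the highest of the 32 members and exceeded that of 89.8% of all tested genes. Bax, the effector that moves from the cytosol to mitochondria, had 4536 and 2169 counts, or 63.4 CPM in control and 39.7 CPM in DSS, a log2 ratio of -0.68 (-0.75 to -0.60). Bak1, the effector that resides in the mitochondrial membrane, had 5153 and 5359 counts, or 72.0 and 98.02 CPM, a log2 ratio of 0.45 (0.39 to 0.50). Bok and Bak1 were thus higher and Bax lower in the DSS library. Bax shares 140 exon bases with the annotated gene Gm45808 on the same strand, so its counts may include or lack reads of that model. To compare genes with each other, levels were divided by the length of the longest protein-coding transcript. On this scale, in CPM per kb, the summed level of the 3 effectors was 96.7 in control and 106.4 in DSS. The sum hid a different makeup. Bax made up 59.6% of the effector level in control and 33.9% in DSS, Bak1 31.2% and 38.6%, and Bok 9.18% and 27.5%. Bax led in control and Bak1 in DSS. With the median transcript length in place of the longest, Bok stood at 32.7% in DSS, above Bax at 30.6%, so the order of these 2 genes in DSS depends on the length used.

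The 5 BH3-only genes held the largest spread of any class, from the lowest member of the whole list to one of the 3 past the upper line. Bad (gene 12015), whose protein is held inactive by phosphorylation under growth factor signaling and binds BCL2 and BCL-XL, had 828 counts in control and 1350 in DSS, or 11.6 and 24.7 CPM. The log2 ratio was 1.09, and its interval of 0.97 to 1.22 included the line. Exons of Bad share 517 bases with Gpr137 on the opposite strand, whose counts were 994 in control and 2043 in DSS (log2 ratio 1.43). The libraries were made with a kit that keeps the strand, but whether the counting used it is not given in the sources used here, and without it reads of the 2 genes cannot be told apart. Bik (gene 12124), a BH3-only protein of the endoplasmic reticulum, had the lowest level of all members, with 64 counts in control and 13 in DSS, or 0.894 and 0.238 CPM. Its log2 ratio of -1.91 was the lowest of the 32, and its interval of -2.90 to -1.04 was the widest. Bid, which caspase-8 cleaves to link the death receptor pathway to mitochondria, was at 12.6 CPM in control and 10.1 CPM in DSS (log2 ratio -0.32, -0.48 to -0.17). Exons of Bid share 628 bases on the opposite strand with the more abundant Bcl2l13, so the same limit of strand holds. Bcl2l13 had 5136 counts in control and 4330 in DSS (log2 ratio 0.14). The remaining 2 genes encode BH3-only proteins that can be held on the cytoskeleton. Bcl2l11, which encodes BIM, was at 12.9 and 17.1 CPM (0.41, 0.28 to 0.55), and Bmf at 8.33 and 11.7 CPM (0.49, 0.32 to 0.65). Their ratios were alike, and Bad, Bcl2l11 and Bmf were higher in DSS where Bid and Bik were lower. Per kb, the class summed to 18.3 in control and 26.8 in DSS, and Bad took 41.2% of it in control and 60.1% in DSS. The share of Bid was 31.4% in control and 17.2% in DSS, and that of Bik was 3.66% and 0.664%.

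The pro-survival proteins bind BH3-only proteins and effectors and keep the membrane closed, and in this class Bcl2 stood apart from the other 3. Bcl2 (gene 12043), the founding member, had 958 counts in control and 237 in DSS, or 13.4 and 4.33 CPM, a log2 ratio of -1.63 (-1.84 to -1.42). Only 10.1% of all tested genes had a lower ratio. An antisense gene, D630008O14Rik, shares 497 exon bases with it. The other 3 genes were higher in DSS. Bcl2l1, which encodes BCL-XL, had 2463 and 3445 counts, or 34.4 CPM in control and 63.0 CPM in DSS (log2 ratio 0.87, 0.80 to 0.95). Mcl1, a short-lived protein on which many epithelial cells depend, was the most abundant of the class, with 8195 and 9414 counts, or 114.5 and 172.2 CPM (0.59, 0.55 to 0.63). The lowest difference was that of Bcl2l2, which encodes BCL-W, at 41.6 and 47.2 CPM (0.18, 0.11 to 0.26). Bcl2l2 shares 440 exon bases with Gm20521 on the same strand, and scaled by total counts its ratio was -0.07. Per kb, the class summed to 59.7 in control and 87.9 in DSS. Mcl1 made up 56.2% of this level in control and 57.3% in DSS, so its share was nearly level while its amount differed. Bcl2l1 took 22.5% and 27.9%, and Bcl2l2 18.3% and 14.1%. The share of Bcl2 was already small in control, at 3.12%, and was 0.686% in DSS.

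**Figure D2:**
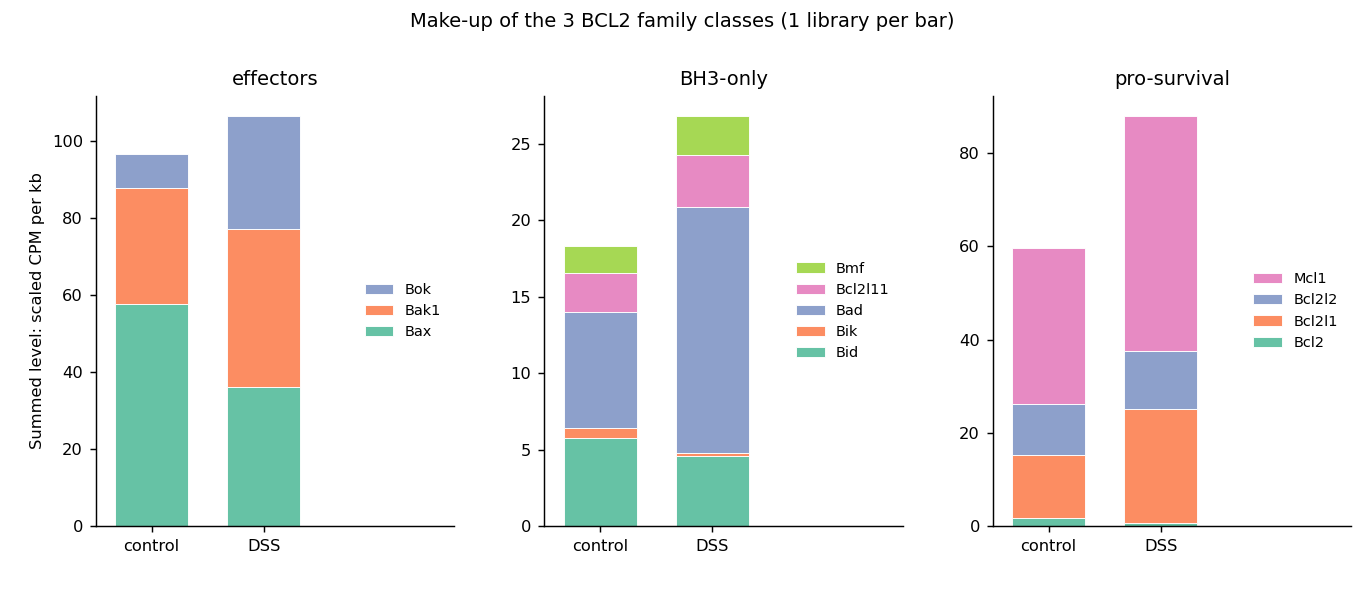
Summed level in scaled CPM per kb of transcript (vertical axis) of the effectors, the BH3-only genes and the pro-survival genes in the control and the DSS library, 1 library per bar, with a colored segment per gene and a separate vertical scale for each class. The segment of Bok widens from 9.18% to 27.5% of the effectors, that of Bad from 41.2% to 60.1% of the BH3-only genes, and that of Bcl2 narrows from 3.12% to 0.686% of the pro-survival genes.

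The 5 mitochondrial factors are proteins that are held inside mitochondria and promote death once released. Cycs (gene 13063), which encodes the electron carrier cytochrome c, had the highest count of all members, with 9861 in control and 15181 in DSS, or 137.8 and 277.7 CPM. Its log2 ratio of 1.01 had an interval of 0.97 to 1.05 and so lay on the line. The mouse genome holds processed pseudogenes of Cycs that are nearly identical to its mRNA, and how the counting treated their reads is not given. Htra2 (gene 64704), a serine protease of the intermembrane space that also binds inhibitors of apoptosis, had 1527 counts in control and 448 in DSS, or 21.3 and 8.19 CPM, a log2 ratio of -1.38 (-1.54 to -1.23). Exons of Htra2 share 545 bases on the opposite strand with Aup1, which was more abundant (7635 and 6005 counts) and had a log2 ratio of 0.04, and 369 bases with Loxl3, which had 10 and 13 counts. Loxl3 had a log2 ratio of 0.77 with a wide interval (-0.54 to 2.12). The limit of strand given for Bad holds for Htra2 too, and the part of these overlaps in its ratio was not tested. The other 3 factors differed by less than the line. Diablo, which encodes the IAP antagonist SMAC, was at 25.2 CPM in control and 20.5 CPM in DSS (-0.30, -0.41 to -0.19), and 626 of its exon bases are also part of Gm49027 on the same strand. Aifm1, which encodes apoptosis-inducing factor, a flavoprotein needed for respiration, was at 63.9 and 52.7 CPM (-0.28, -0.35 to -0.21). Endog, a nuclease of the intermembrane space, was at 11.5 and 14.96 CPM (0.38, 0.24 to 0.52). The class therefore had 2 members higher and 3 lower in DSS, with a median log2 ratio of -0.28.

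None of the 4 caspases of the list reached the line, with log2 ratios from 0.05 to 0.64. Casp8, the initiator of the death receptor pathway, was the most abundant caspase, with 8463 counts in control and 7562 in DSS, or 118.2 and 138.3 CPM, a log2 ratio of 0.23 (0.18 to 0.27). Casp9, the initiator that acts on the apoptosome, was at 36.5 and 42.4 CPM (0.22, 0.13 to 0.30). Casp2, an initiator linked to cell stress and chromosome missegregation, had the highest ratio, at 50.7 CPM in control and 79.1 CPM in DSS (0.64, 0.58 to 0.70). Casp6, an executioner, was at 39.2 and 40.5 CPM. Its log2 ratio of 0.05 had an interval of -0.04 to 0.13 and was the only one among the 32 members that held 0. All 4 caspases were above 0 with TMM, DESeq2 and upper quartile factors and after centering on the median of all genes, but with total counts Casp6 (-0.21), Casp8 (-0.03) and Casp9 (-0.04) were below 0.

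Of the 5 adaptors, regulators and inhibitors of caspases, 4 were higher in the DSS library. Cflar encodes c-FLIP, which pairs with caspase-8 and restrains it. It had 2685 counts in control and 3558 in DSS, or 37.5 and 65.1 CPM, a log2 ratio of 0.79 (0.72 to 0.87). Apaf1, the scaffold of the apoptosome, was at 43.0 and 58.9 CPM (0.45, 0.38 to 0.53). Fadd, the adaptor between death receptors and caspase-8, was the exception, at 16.3 CPM in control and 13.4 CPM in DSS (-0.28, -0.41 to -0.14). The 2 inhibitors of apoptosis of the list were both higher. Xiap, which binds caspases directly, was at 90.0 and 130.4 CPM (0.54, 0.49 to 0.58). Birc6, a very large protein that attaches ubiquitin to caspases and other partners, was at 83.6 and 141.3 CPM (0.76, 0.71 to 0.81). Neither passed the line of 1.

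The nuclease that cuts DNA between nucleosomes in apoptosis is a complex of Dffb, the nuclease, and Dffa, its chaperone and inhibitor, and both were lower in DSS by nearly the same amount. Dffa was at 25.5 CPM in control and 18.8 CPM in DSS (log2 ratio -0.44, -0.55 to -0.33). Dffb had 1288 and 739 counts (-0.41, -0.55 to -0.28). The 2 intervals overlapped.

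The ligand and the receptor of the TNF system went apart. Tnfsf10, which encodes the death ligand TRAIL, had 1605 counts in control and 634 in DSS, or 22.4 and 11.6 CPM, a log2 ratio of -0.95 (-1.09 to -0.82), just inside the line. With total counts it was at -1.21 and so past the line. Tnfrsf12a encodes FN14, the receptor of TWEAK, which is induced in injured epithelium. It had 3446 and 3261 counts, or 48.1 CPM in control and 59.6 CPM in DSS (0.31, 0.24 to 0.38).

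Of the necroptosis proteins, the kinase and its substrate differed in opposite directions and lay far apart in level. Ripk3, the kinase, had 5588 counts in control and 3290 in DSS, or 78.1 and 60.2 CPM, a log2 ratio of -0.38 (-0.44 to -0.31). Mlkl, the pseudokinase that RIPK3 phosphorylates and that breaks the plasma membrane, had 186 and 264 counts, or 2.60 and 4.83 CPM (0.89, 0.62 to 1.17). The interval of Mlkl included the line. Protein activation by phosphorylation is not seen in mRNA counts, for these or for the other members.

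**Figure D3:**
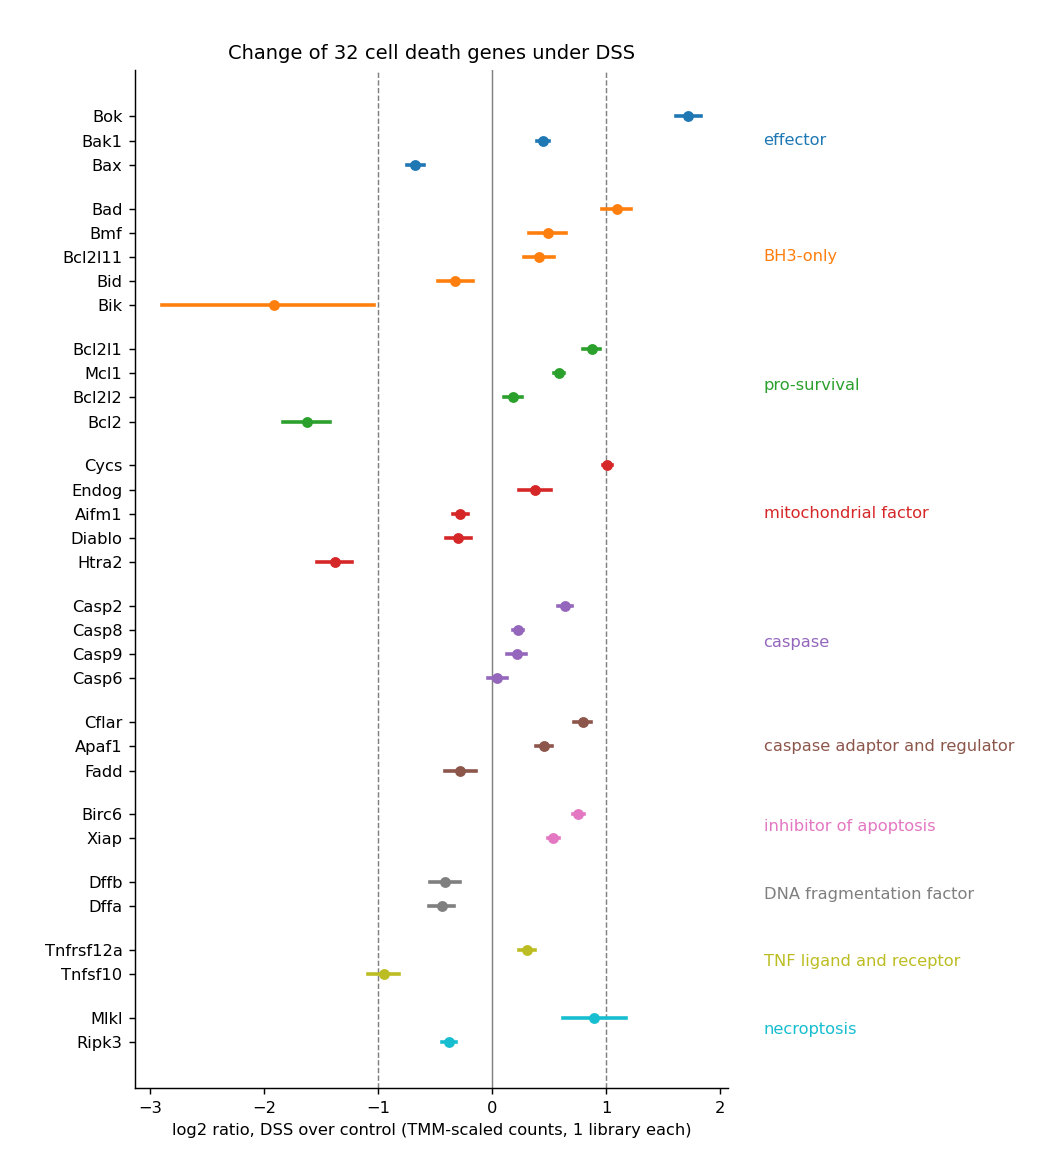
Log2 ratio of TMM-scaled counts, DSS over control (horizontal axis), for the 32 genes grouped and colored by class, with points for the ratio and bars for the exact 95% counting interval (1 library per condition). Bok, Bad and Cycs reach the dashed line at 1, Bik, Bcl2 and Htra2 lie beyond the line at -1, and the bar of Casp6 crosses 0.

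Levels per kb of transcript order the machinery within a library. In control, Bax was the highest at 57.6 CPM per kb, followed by Tnfrsf12a at 48.9, Casp8 at 45.7, Cycs at 44.1 and Ripk3 at 39.8. In DSS, Cycs was the highest at 88.9 CPM per kb, followed by Tnfrsf12a at 60.6, Casp8 at 53.5, Mcl1 at 50.4 and Bak1 at 41.1. Tnfrsf12a and Casp8 thus held the same places in both libraries while Bax stood sixth in DSS, at 36.1 CPM per kb. Bok moved from place 19 (8.87 CPM per kb) to place 8 (29.3), and Htra2 from place 13 (12.4) to place 24 (4.75). At the low end, Bik was the last in both libraries at 0.670 and 0.178 CPM per kb. Mlkl (1.30) and Bmf (1.79) were next above it in control, and Bcl2 (0.603) and Tnfsf10 (2.32) in DSS. Places of neighbors in this order rest on 1 library each and on the transcript length used, so close neighbors are not told apart. With the median transcript length, 9 of the 10 highest members were the same in each library.

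**Figure D4:**
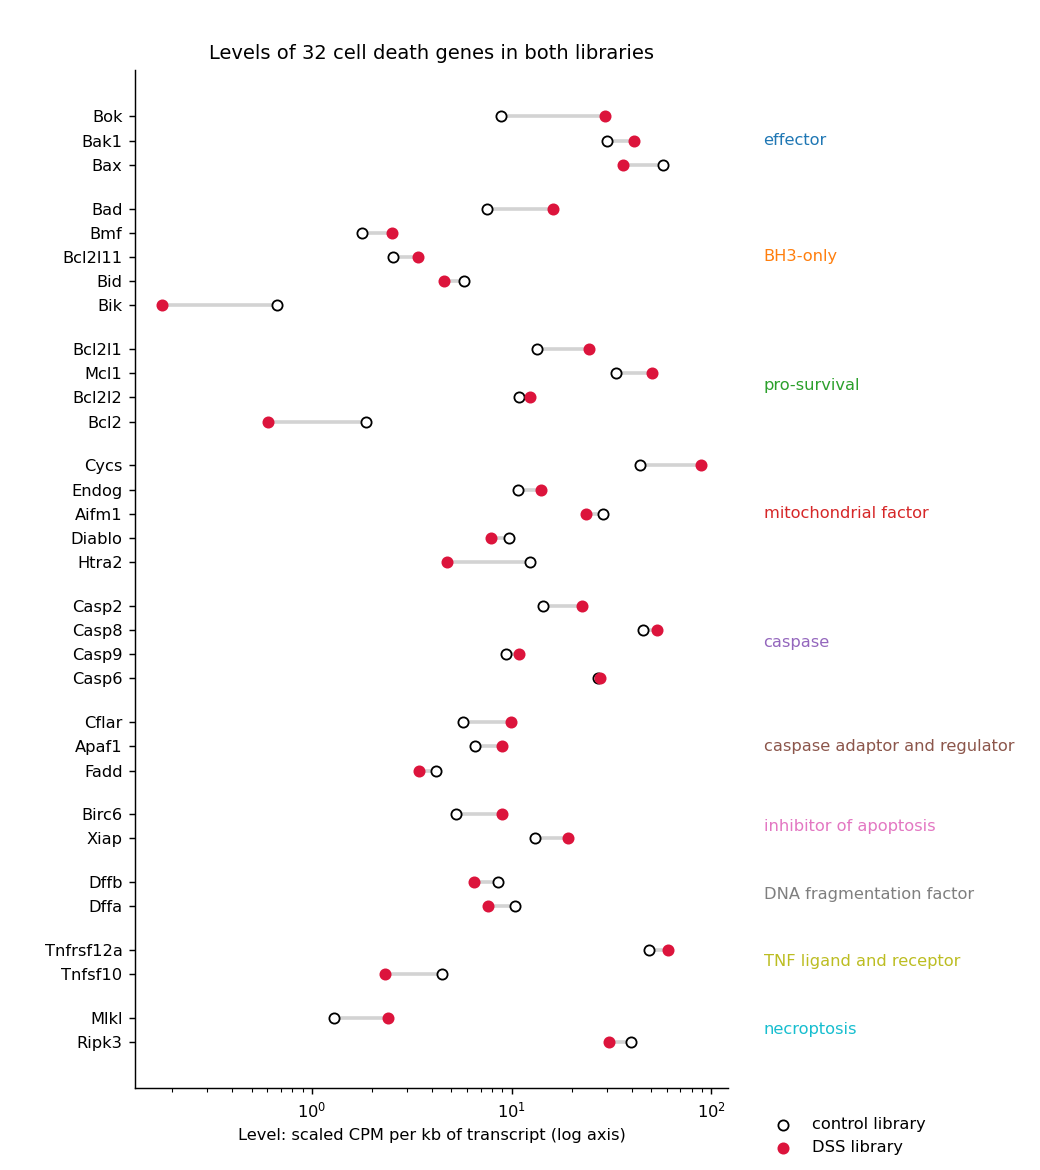
Level in scaled CPM per kb of the longest protein-coding transcript (horizontal log axis) of the 32 genes in the control library (open circles) and the DSS library (red circles), grouped by class. The widest gaps are those of Bik, Bok, Bcl2 and Htra2, and Cycs has the highest point, at 88.9 in the DSS library.

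Ratios of partner genes within a library do not depend on how the libraries are scaled, and 14 pairs of members were compared in this way, with 95% intervals from the 4 counts. In 7 pairs the ratio was higher in DSS beyond counting error, in 5 lower, and in 2 the interval held 0. At this depth the interval lay on 1 side of 0 for 81.4% of all tested single genes. The share for pairs of other genes was not computed, so these counts do not set the partner genes apart. The widest change was between pro-survival genes. Counts of Bcl2l1 were 2.57 times those of Bcl2 in control and 14.5 times in DSS, a log2 change of 2.50 (2.28 to 2.72). The ratio of the effector Bax to a pro-survival gene depended on the partner. Bax over Bcl2 was 4.73 in control and 9.15 in DSS (log2 change 0.95, 0.73 to 1.17), whereas Bax over Bcl2l1 was 1.84 and 0.630 (-1.55, -1.65 to -1.44). These are ratios of counts, which also depend on transcript length. Per kb, Bax was above Bcl2l1 in both libraries, at 57.6 against 13.4 CPM per kb in control and 36.1 against 24.5 in DSS, so the gap narrowed and the order stayed. Bak1 over Mcl1, an effector and the pro-survival protein known to hold it, was nearly level at 0.629 and 0.569 (-0.14, -0.21 to -0.07). Mcl1 over Bcl2l1 was 3.33 in control and 2.73 in DSS (-0.28, -0.37 to -0.20).

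The other pairs were also chosen by role. Cflar over Casp8, the restraint and the initiator of the death receptor pathway, was 0.317 in control and 0.471 in DSS (0.57, 0.48 to 0.65). Diablo over Xiap, the antagonist and its target, was 0.280 and 0.157 (-0.83, -0.95 to -0.71). Casp9 over Apaf1 was 0.849 and 0.719 (-0.24, -0.35 to -0.13). In necroptosis, Mlkl counts were 0.0333 of those of Ripk3 in control and 0.0802 in DSS (1.27, 0.99 to 1.55), and Casp8 over Ripk3 was 1.51 and 2.30 (0.60, 0.53 to 0.68). Tnfrsf12a over Tnfsf10 was 2.15 and 5.14 (1.26, 1.11 to 1.41). Bid over Bik was 14.1 in control and 42.4 in DSS, with a wide interval because of the few Bik counts (1.59, 0.71 to 2.46). Partners that stayed together were Dffb and Dffa, at 0.705 and 0.719 (0.03, -0.14 to 0.20), and Bcl2l11 and Bmf, at 1.55 and 1.47 (-0.07, -0.28 to 0.13).

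**Figure D5:**
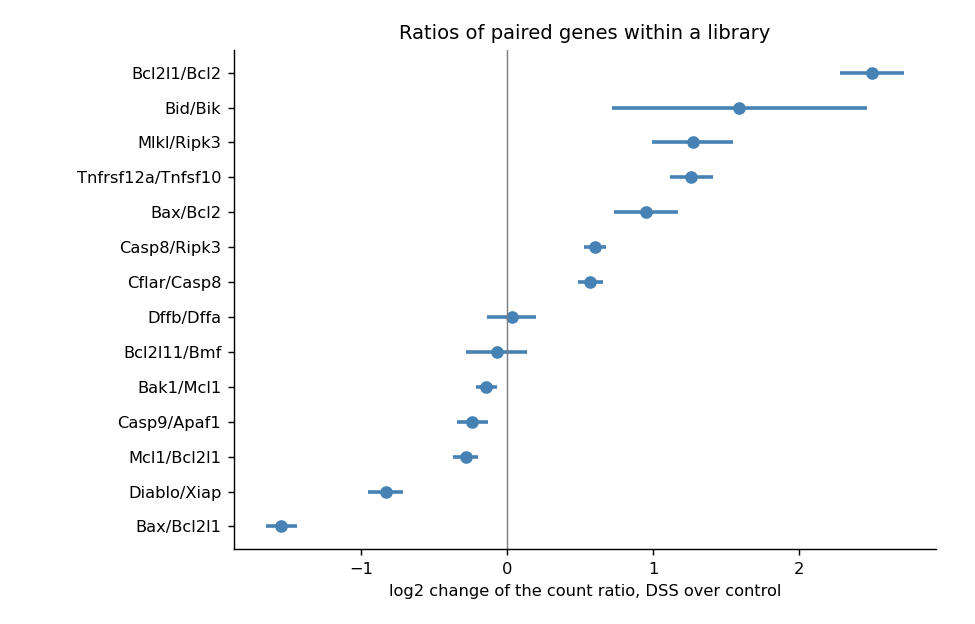
Log2 change of the count ratio between 2 genes of the same library, DSS over control (horizontal axis), for 14 pairs, with points for the change and bars for the 95% interval from the 4 counts. Bcl2l1/Bcl2 is farthest to the right at 2.50 and Bax/Bcl2l1 farthest to the left at -1.55, and the bars of Dffb/Dffa and Bcl2l11/Bmf cross 0.

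Other genes of the same pathways were given by a list of 53 that are not among the 32, of which 49 were in the table and 47 were tested. Of these, 13 (27.7%) were past the upper line and 5 (10.6%) past the lower one, against 19.3% and 20.2% of all genes. Their median log2 ratio was 0.39, with 31 genes above 0 and 16 below. The upper line was passed by 9.38% of the 32 members. Hrk, Bcl2l10, Fasl and Zbp1 were not in the table, which lacks genes without reads in a library, so their levels are not known. In the BCL2 family, Pmaip1, which encodes the BH3-only protein NOXA that binds MCL1, had 7851 counts in control and 18072 in DSS (log2 ratio 1.59, 1.55 to 1.63). Bcl2l15, a BCL2-like gene of the gastrointestinal tract, had 77 and 494 counts (3.07, 2.72 to 3.44). These were the BH3-type genes past the line, and both were higher in DSS. Among receptors, Fas, the receptor of FAS ligand, had 165 and 806 counts (2.68, 2.43 to 2.93), and Tnfrsf21, death receptor 6, had 1248 and 1930 (1.02, 0.91 to 1.12). Tnfaip3, which encodes the ubiquitin-editing enzyme A20, had 1195 and 1963 counts, a log2 ratio of 1.10.

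Inhibitors of apoptosis outside the list held both directions. Birc5, which encodes survivin, a mitotic protein of the IAP family, had 3920 counts in control and 577 in DSS (-2.38, -2.50 to -2.25). It moved with the 7 cell cycle genes, whose median log2 ratio was -4.02, and the part of cell cycle in its ratio was not tested. Naip1 (1.32), Naip2 (1.02), Naip5 (1.67) and Naip6 (1.21) were past the upper line. They encode sensors of bacterial proteins for the inflammasome and are close paralogs in a gene cluster, so reads may have been split among them and the 4 values are uncertain singly. With total counts Naip2 (0.76) and Naip6 (0.95) lay inside the line, as did Tnfrsf21 (0.76) and Tnfaip3 (0.85). Casp14, a caspase of keratinizing epithelium, had 161 and 18 counts (-2.77, -3.56 to -2.07). Among nuclear and mitochondrial genes, Parp1, a DNA repair enzyme that caspases cleave, had 9058 counts in control and 1682 in DSS (-2.04, -2.12 to -1.97), and Aifm3 had 366 and 118 (-1.24, -1.56 to -0.94). The CIDE genes, relatives of the DNA fragmentation factors whose proteins act on lipid droplets and lipoproteins, were all 3 higher. Cideb had 2981 and 8742 counts, a log2 ratio of 1.94, Cidec 1153 and 3573 (2.02, 1.92 to 2.12), and Cidea 16 and 55 (2.17, 1.35 to 3.07). Enterocyte, goblet cell and enteroendocrine markers were also higher in DSS, with median log2 ratios of 3.63, 4.98 and 2.30. The part of cell type content in the ratios of the CIDE genes was not tested.

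Promoters are shown for Bok, the member with the highest ratio, and Bcl2, the pro-survival gene past the lower line, which lie on the same chromosome and went in opposite directions. Each is the 250 bases before the RefSeq start of the gene on GRCm38.p6, written 5′ to 3′ on the strand of the gene, and the capitals mark GC boxes, the binding motif of SP1-type factors, searched as GGGCGG on both strands. The window of Bok is chr1:93685325-93685574 on the plus strand, with 1 GC box and 55.2% G and C. That of Bcl2 is chr1:106714291-106714540 on the minus strand, with 7 GC boxes and 74.8% G and C. Of the 6 genes past a line, 4 had a window, and Bik and Htra2 had none. Bad, also past the upper line, had 3 GC boxes in 1 window and 0 in the other, and Cycs had 0 in its window on chromosome 6. Whether GC boxes go with the direction of a ratio was not tested.
Bok: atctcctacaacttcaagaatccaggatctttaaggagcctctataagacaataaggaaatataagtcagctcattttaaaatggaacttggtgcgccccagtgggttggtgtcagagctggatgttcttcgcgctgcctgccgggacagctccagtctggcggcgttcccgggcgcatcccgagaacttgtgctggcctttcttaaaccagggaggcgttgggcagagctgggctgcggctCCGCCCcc
Bcl2: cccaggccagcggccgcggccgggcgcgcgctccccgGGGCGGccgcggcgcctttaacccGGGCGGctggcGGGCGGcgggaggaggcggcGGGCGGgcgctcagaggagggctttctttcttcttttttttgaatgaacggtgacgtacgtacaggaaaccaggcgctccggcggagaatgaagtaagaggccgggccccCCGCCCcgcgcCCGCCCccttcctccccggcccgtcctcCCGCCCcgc

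RefSeq windows were matched for 30 of the 32 genes, with 38 windows in all. A GC box was in 23 of the 38 windows and in 32.7% of all 32851 windows. The CCAAT box, searched as CCAAT on both strands, was in 12 of 38 windows and in 33.8% of all. TATAAA was in 2 windows, those of Cflar and Xiap, against 12.4% of all. An E2F-type motif, TTTCGCGC or TTTGGCGC, was in 1 window, that of Bcl2l1, against 0.654% of all. The interferon-stimulated response element was matched in none of the 38 windows, against 2.98% of all. These matches describe letters in the windows and are not binding sites.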

How the data were processed

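Gene expression was measured by mRNA-seq (TruSeq Stranded mRNA kit) in 1 control and 1 DSS library. Raw read counts by NCBI gene identifier were deposited by the authors without normalization, together with files of the single samples that are named FPKM but repeat these counts for 19294 of 19294 genes. The submitters' processing notes list HISAT2 and StringTie. The genome build, annotation and strand setting of the counting are not given in the sources used here. The lowest count in the table is 1, so a gene that had no reads in a library is missing from it.

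Counts were scaled by TMM (edgeR 4.0.16, R 4.3.3). Each ratio has an exact Clopper-Pearson 95% interval, and pair ratios a normal 95% interval from the 4 counts, for counting error alone. The planned floor of 3 counts for a gene at 0 was not needed. No test, p-value or SD is given, since each condition has 1 library. The members and gene lists were chosen with earlier results of these data known. All 32 members are named, and other death genes where they were past 1 or -1 with at least 50 counts in at least 1 library. The makeup of classes was added after the data were seen. Transcript lengths came from GENCODE vM21 (GRCm38), matched by symbol. Protein sequences were not used here, so the planned protein motifs were replaced by coding DNA found by a script. Promoters came from RefSeq (GRCm38.p6). Some listed genes are not reported here.

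The computation for DSS against control was tested on simulated counts of 19294 genes, 200 of them changed by 2 or -2 on the log2 scale. Of the changed genes 100% passed the line of 1, and 95.5% of intervals held the true value. The simulated counts held counting error alone, the changed genes were drawn from the more abundant ones, and far fewer changed than differ in these data. The run therefore checks the computation only. It says nothing on the spread between cultures or on the choice of scaling for these libraries. The alternatives tried were scaling by total counts, by upper quartile or by DESeq2 1.42.0, a thinned deeper library, a prior count of 2, a line of 2, different minimum counts, the mean, the median transcript length and, added after the data were seen, centering on the median of all genes. Python 3.11.15, numpy 2.4.6, scipy 1.17.1, pandas 2.3.3 and matplotlib 3.10.9 were used.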

Additional observations from a re-analysis of the deposited data

How the results depend on the processing

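Directions and calls held under DESeq2 size factors, upper quartile factors, a prior count of 2, a thinned control library, other count minimums and centering on the median of all genes, for all 32 members and for their counts past the line. Total counts lowered every log2 ratio by 0.26, the only scaling to move the median of all genes by over 0.1. With total counts, 16 members were above 0 and 16 below, and 1 was at 1 or more (Bok) and 4 at -1 or less, since Bad (0.84) and Cycs (0.75) lay inside the line and Tnfsf10 (-1.21) passed it. Bcl2l2, Casp6, Casp8 and Casp9 changed sign, as given beside their values. The share of past genes that were at 1 or more went from 50% to 20% for the members, from 72.2% to 56.2% (9 and 7 genes) for the other death genes and from 48.9% to 37.1% (2659 and 4508) for all genes. The members' median was 0.011 with total counts, and their mean was 0.10 against the median of 0.27. With a line of 2, the counts were 0 and 0 for the members, 4 and 3 for the other death genes, and 1356 and 1127 for all genes. No paired analysis was possible because the labels give no replicate numbers and there is 1 library per condition.

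Limits are the single library per condition, which leaves the variation between cultures unknown, and the different levels of cell type markers in the 2 cultures. Depth limits Bik, at 64 and 13 counts, most of all members. Of the 32 members, 12 have exons that overlap another gene, 3 on the same strand and 10 on the opposite strand (Diablo on both), and reads of such bases cannot be told apart where counting did not use strand or fell on shared bases. Per kb levels assume 1 transcript length per gene.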

Other observations

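Some genes of the same pathways that were not past the line were chosen for description after their values were seen. The inflammatory caspases Casp1 (log2 ratio 0.24, 0.18 to 0.31) and Casp4 (0.25, 0.15 to 0.35), which act in pyroptosis, had nearly the same ratio. Among genes upstream of RIPK3, the kinase Ripk1 was at 30.6 and 41.0 CPM (0.42, 0.34 to 0.51) and Tnfrsf1a, the main TNF receptor, at 71.0 and 135.9 CPM (0.94, 0.89 to 0.99, and 1.03 with upper quartile factors). Not all genes of this group were higher. Of its 9 tested death receptors, ligands and adaptors, 7 were above 0 and 2 below. Tnfrsf10b was lower (-0.38, -0.48 to -0.28), and the interval of Traf2 held 0 (0.01, -0.11 to 0.13).

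The 3 subunits of the linear ubiquitin chain assembly complex, which holds TNF receptor signaling away from cell death, did not go together. Rnf31, its catalytic subunit, was at 28.4 CPM in control and 42.8 CPM in DSS (0.59, 0.51 to 0.68), Sharpin had 1539 counts in each library (0.39, 0.29 to 0.49), and Rbck1 was at 86.4 and 59.96 CPM (-0.53, -0.59 to -0.47). The deubiquitinases that remove these chains also went apart, with Cyld at 28.9 and 47.5 CPM (0.72, 0.63 to 0.80) and Otulin at 13.3 and 10.6 CPM (-0.33, -0.48 to -0.18).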
